A study of Mus musculus with 6 samples.

Results

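The 10 genes described here encode enzymes and partners of cornification, namely the transglutaminases Tgm1 and Tgm3, cornifelin (Cnfn), the proteases Casp14 and Asprv1, the lipid transporter Abca12, the elongase Elovl4, the ceramide synthase Cers3 and the lipoxygenases Alox12b and Aloxe3. They were chosen by name from the gene count table and are 10 of its 22295 genes. GFP-positive keratinocytes were sorted by FACS from back skin, and their RNA was sequenced, in K19 *Itga3* KO mice (Cre-ERT under the K19 promoter, mTmG reporter, *Itga3* fl/fl; 3 libraries, called KO a, b and c) and K19 *Itga3* WT mice (the same Cre and reporter without the floxed alleles; 3 libraries, WT a, b and c), all bred on FVB (FVB/N in the methods). Both groups had been given tamoxifen for 4 days at 6 weeks of age (10 mg/ml in the labels; the methods of the study give other doses), 1 dose of 30 μg DMBA at 7 weeks and TPA (12.34 μg per application) during the following 2 weeks, so that no untreated skin enters the comparison. The K19 promoter acts in the hair bulge (HB), and GFP marks HB cells and their progeny wherever these lie in the hair follicle or epidermis. The comparison of KO with WT asks how the loss of integrin α3 in these cells goes along with the expression of genes of terminal differentiation at the initiation stage of tumorigenesis.

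When keratinocytes reach the granular layer, transglutaminases link proteins into a cornified envelope beneath the plasma membrane, and profilaggrin is cut into filaggrin and later into amino acids. Lamellar bodies deliver glucosylceramides to the outside, where acylceramides with very long fatty acids are oxidised by lipoxygenases and bound to the envelope as a water barrier. Loss of several of these genes causes ichthyosis in humans. Transglutaminase 3 is also known from the inner root sheath and hair shaft.

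Total counts were 20578309 to 23670507 per library, and the 10 genes had 61 to 4044 counts per library, so that all 10 passed a minimum of 10 counts in every library. Each level is given as CPM, the gene's count relative to the total of its library (TMM-scaled). The cells came from 3 mice of each genotype, so that p-values rest on the spread between these libraries. The floxed *Itga3* was lower in each KO library (WT 298 ± 63.9 CPM against KO 129 ± 5.22 CPM, SD, n = 3; log2 fold change −1.20, adjusted p = 0.00283 in edgeR and 0.130 without WT c). Defining markers of the bulge and of basal cells were abundant (summed over 6 bulge markers 12237 to 18329 CPM in WT and 11487 to 14911 CPM in KO; over 5 basal markers 26463 to 40091 and 30805 to 35718 CPM). Most of the bulge sum was Krt15 (mean 12515.9 CPM in WT and 10835.5 CPM in KO). The paper proposes that Krt15 is also expressed outside the bulge when the epidermis lacks this integrin. Of the bulge markers 5 of 6 had a change below 0, and Cd34, a surface marker of bulge stem cells, was lower in KO (853 against 516 CPM, log2 fold change −0.72 ± 0.14 SE, adjusted p = 0.0462 in edgeR), a call that was lost without WT b, WT c, KO a or KO c (adjusted p from 0.0685 to 0.379). The part of bulge cells in the levels of the 10 genes was not tested. Markers of the granular and cornified layers were low by comparison, with a sum over 7 genes of 32.4 (WT a), 128 (WT b), 42.2 (WT c), 22.3 (KO a), 62.6 (KO b) and 57.3 CPM (KO c). WT b stood apart from the other libraries by its granular markers. In a bulk library, fewer granular cells and less RNA per granular cell cannot be told apart.

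Of the 10 genes, 9 had a log2 fold change above 0 (KO against WT) and only Aloxe3 had one below 0, against 50% of the 21681 tested genes with a change above 0 (50.1% of those with at least 10 counts in every library). The median over the 10 genes was 0.48, whereas the median over all tested genes was 8.82e-05. In 5 of them (Tgm1, Cnfn, Casp14, Abca12 and Alox12b) each KO library lay above each WT library, which was so for 8.03% of all tested genes and for 10.9% of those with at least 10 counts in every library. In Tgm1 and Alox12b the gap between the lowest KO and the highest WT library was smaller than the counting error. None of the 10 genes lay below WT in every KO library (8.23% of tested genes). In the quasi-likelihood test of edgeR, adjusted over all tested genes by Benjamini-Hochberg, however, 0 of the 10 passed an adjusted p of 0.05 (0.673% of tested genes passed, 0.461% as higher in KO). At an unadjusted p below 0.05 there were 5 of 10 (11.5% of tested genes, 5.58% as higher in KO), the same 5 genes. The other tools called 0 of 10 (limma-voom, 0.111% of tested genes called) and 1 of 10 (DESeq2, which called 3.99% of the genes it adjusted, 2.29% as higher in KO), the latter being Cnfn. The median change was 0.26 without WT a, the library with the lowest level of 5 of the 10 genes.

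**Figure D1:**
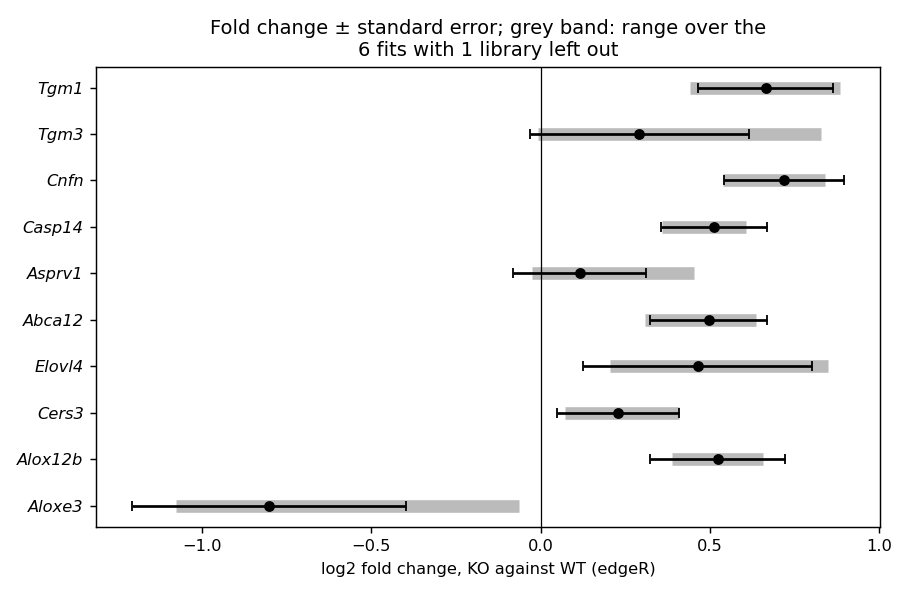
Log2 fold change of each gene for KO against WT on the horizontal axis, as points with the standard error from edgeR, and the range over 6 fits with a library left out as grey bands. The points of 9 genes lie to the right of 0, the bands of Tgm3 and Asprv1 reach just below 0 (to −0.01 and −0.03), and Aloxe3 lies to the left at −0.80 with a band that ends at −0.06.

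Transglutaminase 1, the membrane-anchored enzyme that starts the envelope, was measured at 15.0 (WT a), 13.8 (WT b), 21.47 (WT c), 34.2 (KO a), 23.96 (KO b) and 21.52 CPM (KO c). KO a was the highest, and the lowest KO library was separated from the highest WT library by less than the counting error, which is at most 5.76% of a Tgm1 level here. The log2 fold change was 0.66 ± 0.20 (SE), with edgeR giving an adjusted p of 0.183, and it was 0.44 without KO a. Tgm1 (ENSMUSG00000022218) lies on chromosome 14 from 55700009 to 55713492 (GRCm38, as all positions here). An antisense transcript, Gm49067, overlaps its exons on the opposite strand, and the authors counted reads by strand.

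Transglutaminase 3 (Tgm3, ENSMUSG00000027401, chromosome 2, 130012349 to 130050399) is an enzyme that becomes active after it is cleaved. Its levels were 9.96 (WT a), 6.37 (WT b), 19.2 (WT c), 12.4 (KO a), 19.0 (KO b) and 12.0 CPM (KO c). The highest and the lowest value were both WT libraries and the groups overlapped. The log2 fold change of 0.29 ± 0.32 (SE, adjusted p in edgeR 0.720) was smaller than its error, and it was −0.01 without WT b and 0.83 without WT c.

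Cornifelin (Cnfn, ENSMUSG00000063651, chromosome 7, 25367616 to 25369724), a small component of the envelope, had the smallest p of the 10 genes. It stood at 12.3 (WT a), 8.11 (WT b), 12.8 (WT c), 19.3 (KO a), 19.4 (KO b) and 15.9 CPM (KO c), so that the groups were apart with WT b the lowest. The mean was 11.1 ± 2.58 CPM in WT against 18.2 ± 2.03 CPM in KO (SD, n = 3), a log2 fold change of 0.72 ± 0.18 (SE), but the adjusted p was 0.102 in edgeR and 0.179 in limma-voom. It was 0.0151 in DESeq2. In edgeR without WT a it was 0.0479, in a fit that called 2.44% of all genes, and over all alternatives the adjusted p ranged from 0.0151 to 0.531. An exact two-sided permutation test gave p = 0.1, the smallest p that 3 against 3 libraries allow, for this gene and for each of the other 4 without overlap.

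**Figure D2:**
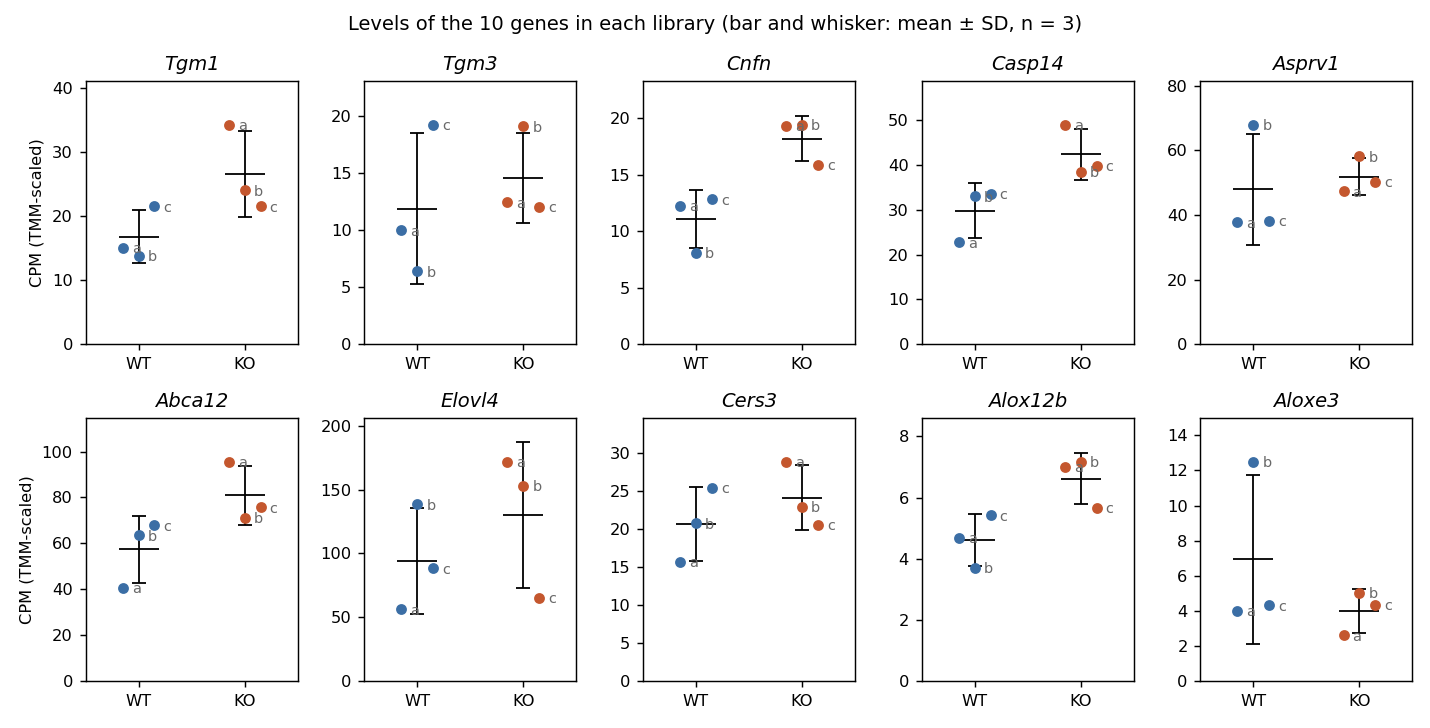
Level of each gene in each library on the vertical axis (CPM scaled by TMM factors, axes from 0), with WT libraries in blue and KO libraries in orange, the letter of the library beside its point, and the mean ± SD (n = 3) in black. The groups are apart for Tgm1, Cnfn, Casp14, Abca12 and Alox12b, in Tgm1 and Alox12b by less than the counting error. WT b is the highest library for Asprv1 and Aloxe3, and KO c is close to the WT libraries for Elovl4.

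The stretches of 250 bases in front of the RefSeq start site (GRCm38.p6) of 9 of the 10 genes (all but Aloxe3) were searched on both strands, with the following 50 bases, for the motifs TGANTCA (AP-1), GGAATG (TEAD), AACCGGTT (grainyhead), TTGCGCAA (C/EBP) and TATAAA. AP-1, grainyhead and C/EBP motifs had a match in 0 of 9 windows (in 7.81%, 0.146% and 0.183% of all 32851 promoter windows of this length), the TEAD motif in 2 of 9 (14.7% of all) and TATAAA in 1 of 9 (13.6% of all). A match is a run of letters and not a bound site. The 3 stretches shown are those of Cnfn, with the smallest p and no match, and of Tgm3 and Casp14, the genes with a match. They are printed 5′ to 3′ on the strand of the gene, with matches in capitals. Cnfn is chr7:25369725-25369974 on the minus strand, Tgm3 is chr2:130012090-130012339 on the plus strand and Casp14 is chr10:78718294-78718543 on the minus strand.
Cnfn: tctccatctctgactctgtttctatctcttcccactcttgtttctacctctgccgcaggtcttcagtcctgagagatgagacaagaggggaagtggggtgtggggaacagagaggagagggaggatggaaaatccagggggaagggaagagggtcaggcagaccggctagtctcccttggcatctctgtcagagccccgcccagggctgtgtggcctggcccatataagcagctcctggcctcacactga
Tgm3: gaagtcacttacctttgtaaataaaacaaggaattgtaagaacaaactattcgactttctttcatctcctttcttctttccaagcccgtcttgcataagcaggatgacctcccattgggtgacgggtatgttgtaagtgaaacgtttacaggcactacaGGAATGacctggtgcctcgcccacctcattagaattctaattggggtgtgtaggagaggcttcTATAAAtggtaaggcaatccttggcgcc
Casp14: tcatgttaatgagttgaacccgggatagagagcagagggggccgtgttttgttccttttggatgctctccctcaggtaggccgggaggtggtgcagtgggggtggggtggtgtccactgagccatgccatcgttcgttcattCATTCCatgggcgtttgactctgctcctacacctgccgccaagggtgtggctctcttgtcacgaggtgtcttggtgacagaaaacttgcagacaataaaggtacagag
In Tgm3 the capitals are the TEAD motif (−91 to −86 from the start site) and TATAAA (−28 to −23), and a further TEAD match lies after the start, from 22. In Casp14 the capitals are the TEAD motif on the other strand (−108 to −103). Of the 2 genes with a TEAD match, Casp14 is among the genes without overlap and Tgm3 is not.

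Caspase 14 (Casp14, ENSMUSG00000005355, chromosome 10, 78711997 to 78718293) is a protease of cornifying cells that takes part in the breakdown of filaggrin. It was measured at 22.7 (WT a), 33.1 (WT b), 33.6 (WT c), 48.97 (KO a), 38.5 (KO b) and 39.9 CPM (KO c). WT a was low and KO a high, and the other 4 libraries lay closer together but in the same order. The log2 fold change was 0.51 ± 0.16 (SE), with edgeR giving an adjusted p of 0.191, and 0.36 without WT a.

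Asprv1 (ENSMUSG00000033508, chromosome 6, 86628174 to 86629702) encodes a retroviral-like aspartic protease that cuts profilaggrin. Its WT levels of 37.7 (a), 67.8 (b) and 38.1 CPM (c) enclosed its KO levels of 47.3 (a), 58.2 (b) and 50.2 CPM (c). WT b was the highest library, and the 2 other WT libraries were below every KO library. With all libraries the log2 fold change was 0.12 ± 0.20 (SE), with edgeR giving an adjusted p of 0.845. Without WT b it was 0.45 (adjusted p = 0.138, the lowest over its alternatives), while without WT a or WT c it was −0.03 or −0.02.

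Abca12 (ENSMUSG00000050296, chromosome 1, 71242276 to 71414910), which loads glucosylceramides into lamellar bodies, was measured at 40.6 (WT a), 63.5 (WT b), 67.9 (WT c), 95.6 (KO a), 71.2 (KO b) and 75.8 CPM (KO c). All KO libraries were above WT, although KO b exceeded WT c by little. The log2 fold change was 0.50 ± 0.17 (SE), with edgeR giving an adjusted p of 0.267, and it was 0.31 without WT a and 0.64 without WT c.

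Elovl4 (ENSMUSG00000032262, chromosome 9, 83778692 to 83806277) makes the ultra-long fatty acids of acylceramides. Its levels differed more within each genotype than between the means, at 56.2 (WT a), 138 (WT b), 88.1 (WT c), 172 (KO a), 153 (KO b) and 64.95 CPM (KO c). WT b was nearer to KO a and b than to the other WT libraries, and KO c lay between WT a and WT c. Mean WT and KO levels were 94.3 ± 41.4 and 130 ± 57.1 CPM (SD, n = 3), with a log2 fold change of 0.46 ± 0.34 (SE, adjusted p in edgeR 0.661). It was 0.85 without WT b and 0.79 without KO c, but 0.21 without WT a or without KO a.

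Cers3 (ENSMUSG00000030510, chromosome 7, 66743504 to 66823692) joins these fatty acids to the sphingoid base. It varied least of the 10 genes except for Asprv1 when the highest library is divided by the lowest (1.84-fold, against 1.80-fold for Asprv1). The levels were 15.7 (WT a), 20.7 (WT b), 25.5 (WT c), 28.9 (KO a), 23.0 (KO b) and 20.6 CPM (KO c). The groups overlapped, and the log2 fold change was 0.23 ± 0.18 (SE), with edgeR giving an adjusted p of 0.681. It was 0.07 without WT a, 0.08 without KO a and 0.41 without WT c.

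The lipoxygenases act in sequence on the linoleate of acylceramides, Alox12b forming a hydroperoxide and Aloxe3 converting it. Their genes are neighbours on chromosome 11 (Aloxe3, ENSMUSG00000020892, 69125896 to 69149115; Alox12b, ENSMUSG00000032807, 69156989 to 69169792), the chromosome of *Itga3*, at 25.9 Mb from it. Alox12b was measured at 4.68 (WT a), 3.71 (WT b), 5.42 (WT c), 7.01 (KO a), 7.18 (KO b) and 5.66 CPM (KO c). All 3 KO libraries were higher, by the least in KO c, on 81 to 165 counts per library. KO c exceeded WT c by less than the counting error, which is at most 11.1% of an Alox12b level here. The log2 fold change was 0.52 ± 0.20 (SE), with edgeR giving an adjusted p of 0.324.

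Aloxe3 was the only one of the 10 genes with a lower mean in KO. Its levels were 3.99 (WT a), 12.5 (WT b), 4.32 (WT c), 2.59 (KO a), 5.02 (KO b) and 4.35 CPM (KO c). WT b, the library with the highest granular markers, was far above the other 5 libraries. The log2 fold change of −0.80 ± 0.40 (SE, adjusted p in edgeR 0.495) became −0.06 (adjusted p = 0.957) without WT b and −1.08 (adjusted p = 0.171) without WT a, while it was −0.57 without KO a. The part of granular cells in this value was not tested.

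Over the 6 libraries, the 10 genes did not share 1 profile. KO a had the highest level of 5 genes (Tgm1, Casp14, Abca12, Elovl4 and Cers3) and the lowest of Aloxe3. WT b had the lowest level of 4 genes (Tgm1, Tgm3, Cnfn and Alox12b) and the highest of Asprv1 and Aloxe3. Loricrin (Lor), the main protein of the mouse envelope, stood at 8.44 (WT a), 60.1 (WT b), 10.6 (WT c), 1.49 (KO a), 25.0 (KO b) and 22.6 CPM (KO c). KO a held the least Lor and WT b the most. Ivl, the 1 granular and cornified marker with a change above 0 (0.33, adjusted p = 0.617 in edgeR), was lowest in WT a (5.14 CPM). The relation of these markers to the 10 genes was not tested. Of the 7 granular and cornified markers, only 4 had at least 10 counts in every library. None of the 7 passed in edgeR (0 of 7, with 0 at an unadjusted p below 0.05), limma-voom or DESeq2, and 6 of 7 had a change below 0 (median −0.69). This direction rested on WT b, since without that library, a fit added after the data were seen, 6 of 7 had a change above 0 (median 0.41). Among the 6 suprabasal markers all had a change above 0 (median 0.33) and 1, Sbsn, passed in edgeR (adjusted p 0.0520 without WT c). Their sum was 1985 to 2619 CPM in WT and 2912 to 3157 CPM in KO. Without Sbsn, left out after its values were seen, it was 1490 to 2120 CPM in WT and 1939.6 to 2128 CPM in KO, so that the groups overlapped.

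**Figure D3:**
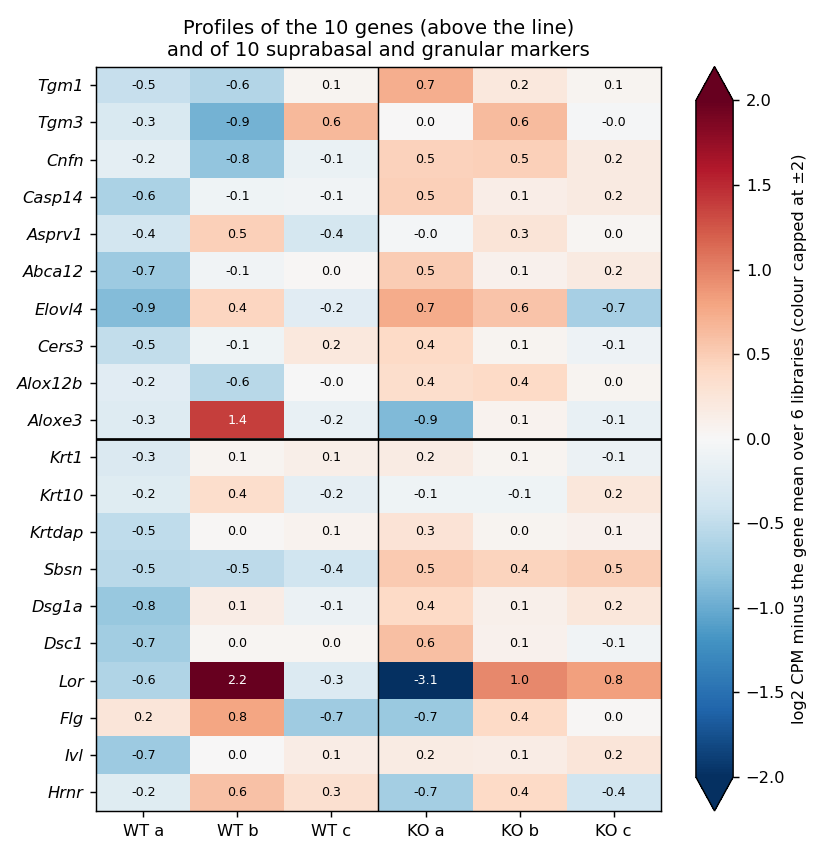
Log2 CPM of each gene minus its mean over 6 libraries, as colour and number, with the 10 genes above the line and below it the 10 suprabasal and granular markers that had at least 10 counts in every library. WT b and KO a have opposite signs in Aloxe3 and Lor, and the reverse signs in Tgm1, Cnfn and Casp14.

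For the 3 genes with the largest spread of log2 CPM over the libraries, the genes with the closest centred profile were found among 11773 others with a mean of at least 50 counts, by the root mean square difference over 6 libraries. Aloxe3 (SD 0.75) was followed by Camk2n1 (difference 0.15), Sh3d21 (0.16) and 2310007B03Rik (0.17). Elovl4 (SD 0.68) was followed by Rarres1 (0.22), Rdh1 (0.23) and Acox2 (0.23), the last 2 being enzymes of retinol and of branched fatty acid and bile acid metabolism. Tgm3 (SD 0.60) was followed by Sprr2d (0.21), itself a precursor of the envelope, Il33 (0.21) and Vim (0.22). None of these 9 genes passed in edgeR (0 of 9, adjusted p from 0.304 to 0.681, against 0.673% of all tested genes). They were picked in the same libraries for profiles close to those of genes that did not pass. The count can therefore not be read as a separate result.

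Divided by exon length, the levels of the 10 genes spanned from Elovl4 (31.1 ± 13.7 CPM per kb in WT and 43.0 ± 18.9 CPM per kb in KO, SD, n = 3) and Asprv1 (30.9 ± 11.2 and 33.5 ± 3.65 CPM per kb) down to Aloxe3 (1.08 ± 0.75 and 0.623 ± 0.196 CPM per kb). Elovl4 and Asprv1 did not differ beyond their spread. They were followed by Cnfn (15.4 ± 3.58 and 25.3 ± 2.82 CPM per kb) and Casp14 (12.4 ± 2.56 and 17.7 ± 2.38 CPM per kb), which overlapped in WT. Cers3, Tgm1, Abca12, Tgm3 and Alox12b lay between 6.34 and 1.89 CPM per kb in WT and between 8.40 and 2.72 CPM per kb in KO. Among all tested genes with an exon length the 10 ranked between percentile 45.2 (Aloxe3) and 94.1 (Elovl4).

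By mean CPM per kb in WT or KO, none of the 6 genes compared with paralogs was the leading member of its family. Of 7 transglutaminase genes, Tgm5, an enzyme of the upper epidermis that is known from acral peeling skin, took 92.5 ± 1.74% of the family's CPM per kb in WT and 87.5 ± 2.06% in KO (SD, n = 3), whereas Tgm1 took 3.46 ± 0.73% and 7.30 ± 2.32%. The change of Tgm5 had the opposite sign to that of Tgm1. It was measured at 485 (WT a), 399 (WT b), 453 (WT c), 291 (KO a), 360 (KO b) and 315 CPM (KO c), below WT in every KO library (log2 fold change −0.47 ± 0.11 SE, adjusted p = 0.0861 from edgeR, 0.151 in limma-voom and 0.00724 in DESeq2).

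Of 7 lipoxygenase genes, Alox12e, the epidermal 12-lipoxygenase, led with 92.5 ± 67.1 CPM per kb in WT and 46.8 ± 6.07 CPM per kb in KO, followed by Alox8 with 12.6 ± 4.57 and 21.0 ± 3.37 CPM per kb. Like Aloxe3, Alox12e was highest in WT b, at 478 CPM against 114 to 181 CPM in the other 5 libraries, and its log2 fold change of −0.98 (adjusted p = 0.305 in edgeR) was −0.21 without WT b and −1.31 (adjusted p = 0.0339) without WT a. Alox8 was measured at 50.3 (WT a), 26.5 (WT b), 57.6 (WT c), 69.7 (KO a), 88.4 (KO b) and 66.0 CPM (KO c), each KO library above each WT library. Its log2 fold change was 0.74 ± 0.22 (SE) and its adjusted p 0.192 in edgeR, and without WT b the change was 0.47. Alox12b had rank 3 of the family in both groups, and Aloxe3 rank 4 in WT and rank 5 in KO. In KO, Aloxe3 (0.623 ± 0.196 CPM per kb) and Alox12 (0.657 ± 0.196 CPM per kb) did not differ beyond their spread. The order of ranks 4 and 5 there is thus not settled.

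Elovl4 had rank 2 of 7 elongase genes in both groups, next to Elovl1 (37.7 ± 2.33 CPM per kb in WT and 45.8 ± 3.21 CPM per kb in KO), from which it did not differ beyond its spread. Per kb, Elovl4 lay above Elovl1 in WT b, KO a and KO b and below it in the other libraries. Cers3 had rank 4 of 6 ceramide synthase genes, with 12.5 ± 2.93% of the family's CPM per kb in WT and 14.6 ± 2.36% in KO, behind Cers5, Cers2 and Cers4, which are known to be expressed in many cell types or, for Cers4, in skin appendages. In KO, Cers3 (7.42 ± 1.31 CPM per kb) and Cers4 (8.55 ± 0.18 CPM per kb) did not differ beyond the spread of Cers3. By CPM without exon length, Cers4, with 12264 bases of exon, was the highest of the family (99.4 CPM in WT and 105 CPM in KO). Tgm6 had 0 counts in 5 of the 6 libraries. None of the 21 paralogs passed in edgeR or limma-voom (0 of 21), and Tgm5 alone passed in DESeq2. At an unadjusted p below 0.05 there were 2 of 5 Tgm, 2 of 5 Alox, 1 of 6 Elovl and 1 of 5 Cers genes, against 11.5% of all tested genes.

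**Figure D4:**
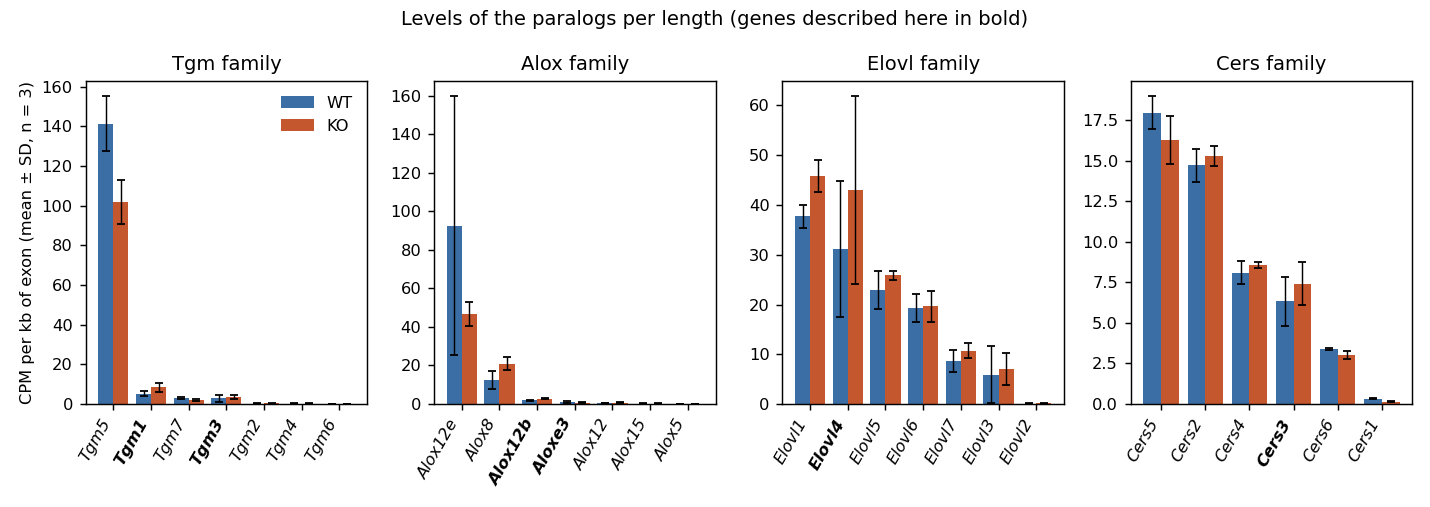
Mean CPM per kb of exon ± SD (n = 3) of the genes of 4 enzyme families, in WT (blue) and KO (orange), ordered by the WT level, with the genes described here in bold. Tgm5 and Alox12e exceed Tgm1 and Alox12b many times over, Elovl4 stands beside Elovl1, and Cers3 has rank 4 of its family.

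Other genes of the barrier were taken from lists by role. Of 16 tested genes of envelope and filaggrin processing, 3 rose in KO and 0 fell (median log2 fold change 0.15, with 11 above 0). Over all tested genes, 0.461% rose and 0.212% fell by the same edgeR call, shares to be set beside each list below. The 3 were the kallikreins Klk5 (1.25 ± 0.13 SE, adjusted p = 0.00242 from edgeR), Klk7 (1.34 ± 0.21 SE, adjusted p = 0.0187) and Klk8 (1.26 ± 0.21 SE, adjusted p = 0.0256), which are serine proteases of desquamation and do not build the envelope. Their genes lie close together on chromosome 7, between 43797577 and 43851181. In limma-voom the adjusted p was 0.0126 for Klk5, 0.0929 for Klk7 and 0.128 for Klk8, and the edgeR calls of all 3 were lost without WT c (adjusted p from 0.126 to 0.368), while without KO a only Klk7 kept its call (0.0221, against 0.0532 for Klk5 and 0.134 for Klk8).

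Of 25 genes of ceramide and fatty acid synthesis, 0 rose and 1 fell, the acyl-CoA synthetase gene Acsbg1 (WT 156 ± 62.5 CPM against KO 61.4 ± 12.8 CPM, SD, n = 3; log2 fold change −1.34 ± 0.24 SE, adjusted p = 0.0328 from edgeR and 0.135 in limma-voom). The median of the list was 0.18, with 17 above 0. In 6 of the 25 genes each KO library lay above each WT library, and in 3 each lay below. The shares over all tested genes were 8.03% and 8.23%. Among the 6 were 3 enzymes that act alongside the elongases in fatty acid elongation, none of which passed in edgeR. These were Hacd3 (0.37, adjusted p = 0.10), Tecr (0.37, adjusted p = 0.111) and Hsd17b12 (0.24, adjusted p = 0.394). In DESeq2, which called 3.99% of the genes it adjusted, Tecr and Hacd3 passed (adjusted p = 0.00856 and 0.0134) and Hsd17b12 did not (0.316).

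Of 19 tested genes that act in lamellar bodies and the cornified layer, 0 passed in edgeR (8 at an unadjusted p below 0.05) or limma-voom and 2 in DESeq2, with a median of 0.15 and 16 above 0. Over all tested genes 11.5% had an unadjusted p below 0.05 in edgeR, and DESeq2 called 3.99% of the genes it adjusted. The 3 with the smallest p were Sult2b1, which makes cholesterol sulfate (0.82 ± 0.18 SE, adjusted p = 0.0722), Nipal4, an ichthyosis gene (0.54 ± 0.13 SE, adjusted p = 0.104), and Alox8. Each KO library lay above each WT library in 6 of the 19 genes and below in 1, Psap (1166 CPM in WT and 976 CPM in KO). The shares over all tested genes were 8.03% and 8.23%. The 6 held the 3 genes above and also Sdr9c7 (0.52, adjusted p = 0.281) and Ephx3 (0.75, adjusted p = 0.201). Their enzymes act after Alox12b and Aloxe3 on the same lipids.

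Of 18 regulators of epidermal differentiation, 0 fell, and the median log2 fold change was 0.21, with 14 above 0. Cebpb, a transcription factor of keratinocyte differentiation, rose in KO (55.3 ± 6.604 CPM in WT, 88.7 ± 10.6 CPM in KO, SD, n = 3; 0.68 ± 0.12 SE, adjusted p = 0.0260 from edgeR), while in limma-voom its adjusted p was 0.106. In 10 of the 18, against 8.03% of all tested genes, each KO library was above each WT library, among them the grainyhead genes Grhl1 (0.43, adjusted p = 0.137) and Grhl3 (0.89, adjusted p = 0.144), Ovol1 (0.78, adjusted p = 0.180) and Zfp750 (0.68, adjusted p = 0.0708). Trp63, the master regulator of the stratified epithelium, stood at 1320 (WT a), 1066 (WT b), 1238 (WT c), 1131 (KO a), 1321 (KO b) and 1201 CPM (KO c), a log2 fold change of 0.01 ± 0.11 (SE). Together the 78 tested genes of these lists held 26 that were higher and 6 that were lower in every KO library. Over all tested genes these shares were 8.03% and 8.23%. Of the 78, 6 passed in edgeR (0.673% of all tested genes), a number that was 0 when WT c was left out and 1 when KO a was left out or in limma-voom.

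Markers of some other cells were compared between the genotypes as well. Over 8 markers of the inner root sheath and hair shaft, where Tgm3 is known to be expressed, the sum was 12.0 (WT a), 23.96 (WT b), 15.2 (WT c), 49.5 (KO a), 19.0 (KO b) and 43.8 CPM (KO c), so that the groups overlapped. All 8 had a change above 0 (50% of tested genes). Krt25, Krt28 and Krt35 passed in edgeR (adjusted p 0.0256, 0.0461 and 0.0462, with 0.461% of tested genes called higher) but not in limma-voom (0.192, 0.192 and 0.256) or without WT c. Without WT b 1 of the 8 passed. Counts in WT were few, at 4 to 14 for Krt25 and 6 to 8 for Krt35, and only 5 of the 8 markers had at least 10 counts in every library. The highest levels of Tgm3 were in WT c and KO b, and its relation to this sum was not tested. Over 6 fibroblast markers the sum was 116 to 178 CPM in WT and 48.1 to 80.3 CPM in KO, without overlap, most of it Col1a1 and Col1a2, while Col3a1 was at 0 in WT and Lum at 3 counts or fewer throughout. Of these markers 0 of 6 passed in edgeR (5 at an unadjusted p below 0.05, against 11.5% of all tested genes). The list did not go 1 way, as 3 of 6 had a change above 0, and of the 2 that passed in DESeq2 Col1a2 was lower (61.9 CPM in WT and 27.3 CPM in KO, adjusted p = 0.00073) and Dcn higher (1.03 and 3.70 CPM, adjusted p = 0.0161). Over 6 sebocyte markers the sum was 202 (WT a), 487 (WT b), 275 (WT c), 384 (KO a), 265 (KO b) and 264 CPM (KO c), with WT b the highest. The sums over markers of melanocytes (6.33 to 13.4 CPM in WT and 10.3 to 11.7 CPM in KO), immune cells (5.63 to 10.4 and 5.99 to 9.19 CPM) and endothelial cells (2.34 to 3.44 and 2.64 to 3.42 CPM) were low and overlapped. The part of these cells in the levels of the 10 genes was not tested.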

How the data were processed

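Polyadenylated RNA was sequenced in 6 strand-specific libraries. Per the labels and the methods of the study, the authors aligned single reads to mouse build GRCm38 with TopHat2 2.1.0 (Bowtie 1.1) and Ensembl gene models, counted uniquely mapped reads per gene by strand, and deposited these raw counts. Reads with several matches were dropped, so genes with near-identical copies can lose counts. Column names give a genotype and a library number that matches no sample title, so libraries were assigned to groups only. All genes with a count anywhere (21681 of 22295) entered edgeR 4.0.16 in R 4.3.3 (TMM factors, glmQLFit, glmQLFTest, KO against WT), adjusted over all of them by Benjamini-Hochberg, with a call at an adjusted p below 0.05. The standard error is the log2 fold change divided by the root of the F statistic. Alternatives were limma-voom (limma 3.58.1), the package of the study, DESeq2 1.42.0, library size only, upper-quartile factors, filterByExpr, at least 10 counts in every library, the limits of the study on level (mean log2 CPM above 4) and fold change (above 0.6), and each library left out. Exon lengths, the union of all annotated exons of a gene, came from GENCODE (98.9% of tested genes) and promoters from RefSeq. Depth was 20578309 to 23670507 counts per library, at which 3 counts are 0.127 to 0.146 CPM, limits that cover only counting error since reads carry no molecular identifiers. Every pair of libraries differed by more than sampling noise (lowest chi-square per df 10.7). The code was tested on simulated counts. The genes and lists were chosen with earlier results of these data known. Named genes were the 10 genes, *Itga3*, their paralogs, genes of the barrier lists that passed or had the 3 smallest p, the cell type markers and the closest profiles; other genes were named after their values were seen. Of the listed genes Ctsv, Sts and Trdc had no match in the table, and Hacd3 was matched by its identifier. One gene of the regulator list is not reported here.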

Additional observations from a re-analysis of the deposited data

How the results depend on the processing

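Over 12 alternatives, the log2 fold changes of the 10 genes gave 120 values, of which 115 kept their direction and their side of the threshold. Cnfn passed in 2 of them (DESeq2 and without WT a), which made the number of the 10 genes called 1 instead of 0, and 0 to 1 over the fits with a library left out. Left-out libraries moved Tgm3 from −0.0085 to 0.83 and Asprv1 from −0.026 to 0.45, with a change of sign for Tgm3 without WT b and for Asprv1 without WT a or WT c (−0.025). The median over the 10 genes, 0.48 with all libraries, lay between 0.26 (without WT a) and 0.62 (without WT c). Over the whole table, 146 genes were called, against 24 in limma-voom, 546 in DESeq2, 15 with filterByExpr, 12 where every library had to hold at least 10 counts, and 5 (without WT c) to 521 (without WT a) with a library left out. Of the other barrier genes, 6 were called, against 1 in limma-voom, 15 in DESeq2, 1 with filterByExpr, 1 where every library had to hold at least 10 counts, and 0 to 7 with a library left out. The cause of these differences was not tested. Of 49 list genes with an unadjusted p below 0.05, 582 values gave 61 lost and 16 gained calls and no change of direction. By CPM without exon length, Abca12 had rank 2 instead of rank 7 among the 10 genes. With 3 libraries per group no exact test of a single gene can give a p below 0.1. No paired analysis was possible because the library numbers in the count table match no sample title and none is shared between the genotypes.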

Other observations

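The counts of the neighbouring lipoxygenase genes were also set against each other within each library, a comparison chosen after the values were seen and independent of library size. For each read of Aloxe3 there were 1.17 (WT a), 0.297 (WT b), 1.26 (WT c), 2.70 (KO a), 1.43 (KO b) and 1.3 (KO c) reads of Alox12b. All 3 KO ratios exceeded all 3 WT ratios, but KO c exceeded WT c by less than the counting error. These 2 ratios rested on 117 and 90 counts of Alox12b and Aloxe3 in KO c and on 123 and 98 in WT c. On the log2 scale the means were −0.40 ± 1.17 for WT against 0.78 ± 0.57 for KO (SD, n = 3), a difference of 1.18 with p = 0.1, the lowest value that an exact permutation test (two-sided) can give here. Without WT b the WT mean was 0.28 (n = 2) and the difference 0.50, so that the larger part of it rested on that library. The low ratio of WT b rested on 81 counts of Alox12b and 273 counts of Aloxe3.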
